A study of Mus musculus with 18 samples.

Results

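Transcripts of 10 genes that mark cardiac fibroblasts or their activation were followed in the mouse left ventricle from sham operation to 72 h after a coronary ligation. The genes were listed by name, and all 10 were found by Ensembl gene ID among the 30583 genes of the deposited count table. A set of 4 marks resting fibroblasts (Pdgfra, Tcf21, Gsn and Pi16), and a set of 6 marks their activation towards myofibroblasts (Acta2, Tagln, Fap, Meox1, Runx1 and Lrrc15). By its title the series is a time course of transcription and DNA methylation in infarction, of which the transcripts are described here.

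There were 18 libraries from 18 male C57BL/6JR mice aged 12 weeks, 3 in each of 6 groups, and the labels name no transgene or deletion. In 5 groups the left anterior descending coronary artery was tied, and the mice were killed 10 min later, or after 1, 6, 24 or 72 h. The sham group had the same operation with a suture that was passed but not tied, and the labels place it at 0 h, so no sham mice matched the later times. Poly(A) RNA came from the myocardium of the infarcted left ventricle. The labels also name cardiomyocytes as the cell type, but describe no separation of cells, and the 10 cardiomyocyte markers and the 12 leukocyte markers were all detected in every group. The libraries were therefore read as whole tissue, in which fewer cells of a type and less RNA per cell cannot be told apart.

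Fibroblasts build and maintain the collagen scaffold of the heart. After an infarction they proliferate, lay down matrix and take on contractile fibres, and the contractile form is called the myofibroblast. TGF-β signalling through SMAD proteins, stiffness sensing through YAP, TAZ and TEAD factors, and the actin-sensing pair of serum response factor and its MRTF partners are the textbook routes to this state. Serum response factor binds the CArG box, a short element shared by promoters of smooth muscle genes. Several of the 10 genes are not private to fibroblasts: Acta2 and Tagln are made by vascular smooth muscle, Runx1 by blood cells, and Gsn by many cell types.

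The libraries held 18.2 to 25.1 M counts (M, mega) and are compared as TMM-scaled counts per M (CPM). Mitochondrially encoded genes took 17.7% to 27.4% of the counts in all libraries up to 24 h and 8.41% to 10.5% at 72 h. The 10 cardiomyocyte markers summed to 71250 to 76500 CPM in sham and to 17010 to 22750 CPM at 72 h, while the 12 leukocyte markers went from 220 to 251 CPM to 3162 to 4020 CPM. In marker sums 3 libraries stood apart from the others of their groups. Replicate 1 at 6 h had a leukocyte marker sum of 1040 CPM, against 532 and 305 CPM in the other two, and an atrial marker sum of 176 CPM, where the other 17 libraries lay between 4.06 and 8.63 CPM. Replicate 3 at 24 h had a leukocyte marker sum of 1571 CPM, against 762 and 661 CPM. Replicate 1 at 72 h had a sum of the 8 epicardial and mesothelial markers of 75 CPM, against 24 and 28.2 CPM in the other two. In sham this sum was 12.6 to 23 CPM, and 5 of these 8 markers were called higher at 72 h, as were 34.2% of all genes. Replicate 1 at 72 h also had the highest cardiomyocyte marker sum of its group, 22750 CPM against 17010 and 17540 CPM. The part of these marker differences in the results at 6, 24 and 72 h was not tested. Without replicate 3 at 24 h, Pdgfra (log2 0.56), Tcf21 (-0.47), Gsn (-1.11), Fap (-0.87), Meox1 (1.25), Runx1 (1.75) and Lrrc15 (-1.79) were still called against sham, Pi16 no longer was, and Acta2 and Tagln were not called with or without it. Without replicate 1 at 6 h, Fap alone was called at 6 h. Without replicate 1 at 72 h the same 9 genes were called against sham at 72 h, in the same directions, and against 24 h the calls of Gsn and Pi16 changed as given below. When libraries were scaled by their totals instead, the median over all genes shifted to log2 -0.12 at 6 h, to 0.20 at 24 h and to 0.61 at 72 h. Higher genes then made up 40.6%, 75.5% and 79.9% of the calls at these times, against 57.2%, 54% and 51.4% with TMM.

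Tests are edgeR quasi-likelihood tests over 16311 genes with Benjamini-Hochberg adjustment, all 10 genes among them, and a gene was called at an adjusted p under 0.05. The 5 comparisons with sham share the same 3 sham libraries. At 10 min and at 1 h none of the 10 genes was called by edgeR, by DESeq2 or by limma, where edgeR called 0.0736% and 0.294% of all genes. Of the 10, Meox1 alone had an unadjusted edgeR p under 0.05 at each time, as had 1144 and 899 of the 16311 genes. At 6 h 5 of 10 were called, with 3 higher and 2 lower, against 28.4% of all genes (16.3% higher and 12.2% lower). At 24 h 8 of 10 were called, with 3 higher and 5 lower, against 43.8% (23.7% higher and 20.2% lower). At 72 h 9 of 10 were called, with 7 higher and 2 lower, against 66.4% (34.2% higher and 32.2% lower). All 10 passed the F test over the 6 groups, as did 78.4% of all genes. The 3 libraries of a time did not overlap those of sham for 1, 2, 5, 8 and 9 of the 10 genes in time order, where 20%, 16.9%, 44.3%, 53.7% and 75.8% of all genes did not overlap. Between consecutive times, 0 of 10 were called from 10 min to 1 h (0.307% of all genes), 4 from 1 h to 6 h (24.5%), 3 from 6 h to 24 h (27.8%) and 7 from 24 h to 72 h (50.5%). Of these, 2 rose and 2 fell at the second step (background 14.5% and 10%), 1 rose and 2 fell at the third (14.2% and 13.7%), and all 7 rose at the last (24.4%). The median log2 fold change of the 6 activation genes at 6, 24 and 72 h was -0.28, -0.08 and 1.73, that of the 4 identity genes 0.16, -0.6 and 0.5, and that over all genes -0.01, 0.01 and 0.03.

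**Figure D1:**
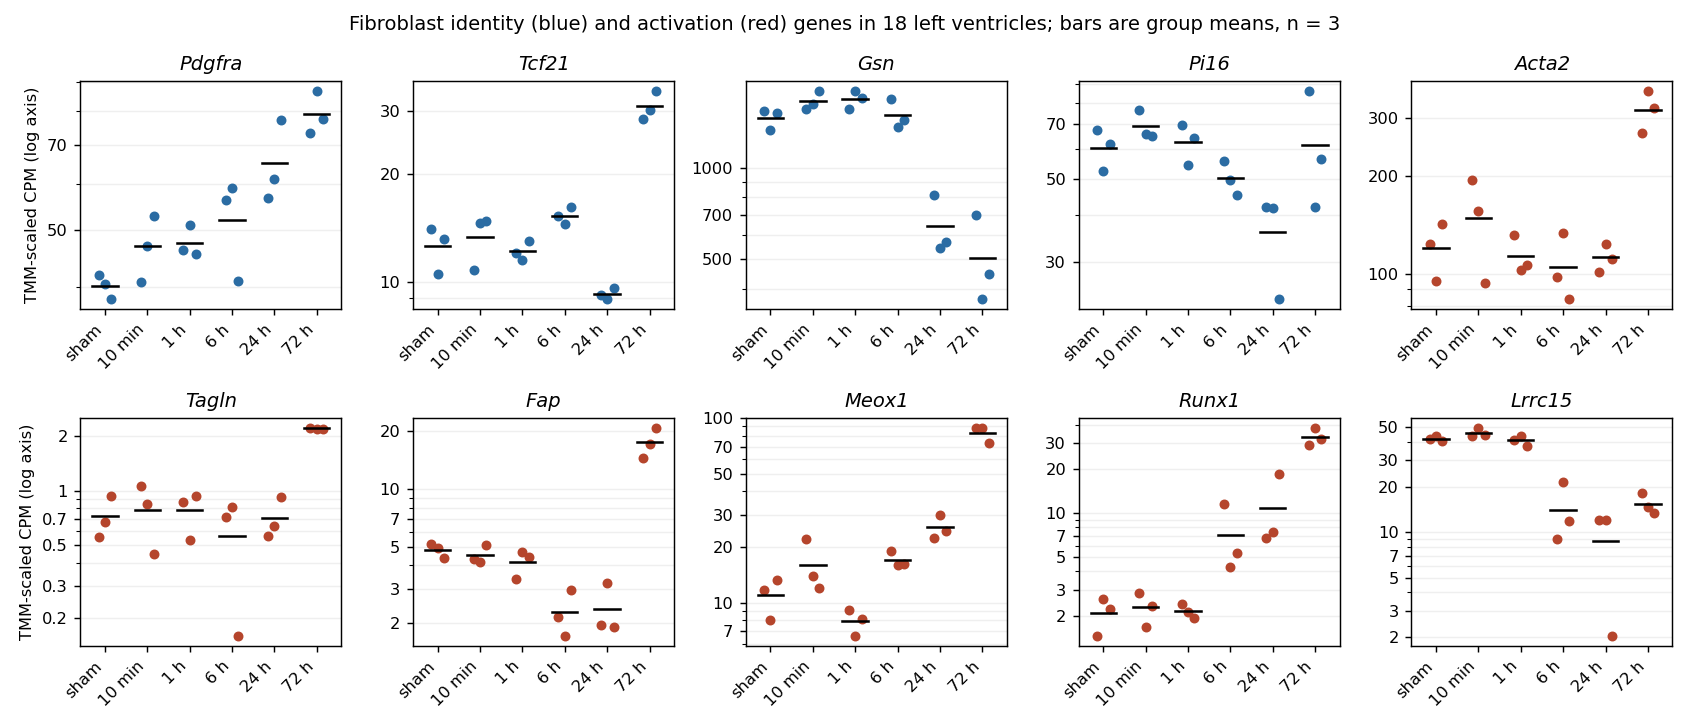
TMM-scaled CPM (log axis, a separate scale in each panel) of the 10 genes in each of the 18 libraries, grouped by time; points are libraries and bars are means of 3. At 72 h the 3 points lie above all 3 sham points for 7 genes and below them for Gsn and Lrrc15, and the Pi16 points overlap.

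**Figure D2:**
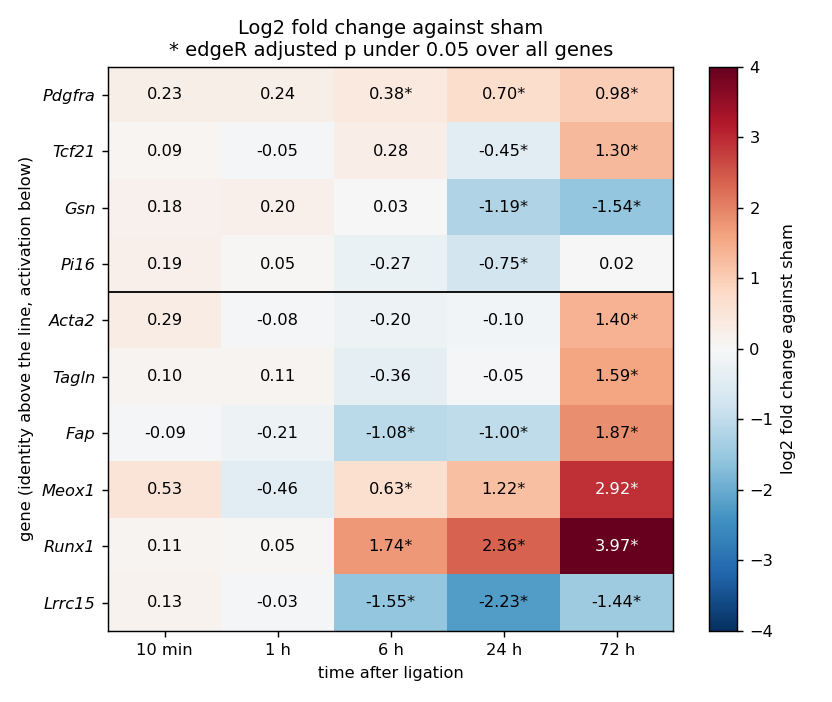
Log2 fold change against sham (colour and number) of each gene (rows) at each time (columns), with an asterisk where the edgeR adjusted p was under 0.05. The first 2 columns have no asterisk, and the last column has 9.

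Among the identity genes, Pdgfra encodes the alpha receptor for platelet-derived growth factors and is the usual surface marker of cardiac fibroblasts (chr5:75152292-75198215, plus strand, GENCODE M21 on GRCm38, as are all gene positions here). Its level was 41.9, 40.4 and 38.1 CPM in the 3 sham libraries, 40.7, 47 and 52.9 CPM at 10 min and 46.2, 51 and 45.5 CPM at 1 h. It was 56.3, 59.1 and 40.9 CPM at 6 h, 56.7, 61.2 and 77.5 CPM at 24 h and 73.6, 86.6 and 77.6 CPM at 72 h. All libraries of 1 h, 24 h and 72 h lay above all sham libraries, whereas replicate 3 at 6 h lay among them. Pdgfra rose 1.62-fold at 24 h (log2 0.70, SE 0.14, edgeR adjusted p = 5.8e-04) and 1.98-fold at 72 h (log2 0.98, SE 0.14, edgeR adjusted p = 4.36e-06). The change at 6 h was at the threshold (log2 0.38, SE 0.14, edgeR adjusted p = 0.0466). It was not called with only the sham and 6 h libraries in the fit (adjusted p = 0.0625), with a replicate block (0.054), with library totals (0.182), without replicate 1 (0.161) or 2 (0.178) at 6 h, or without any 1 of the sham libraries (0.0798 to 0.138). Neighbouring times were not called apart, with an adjusted p of 0.0861 for 24 h against 6 h and of 0.0864 for 72 h against 24 h. With library totals both steps were called as rises (log2 0.63, adjusted p = 0.00238, and log2 0.67, adjusted p = 6.4e-04), the first also without replicate 2 at 6 h (0.0456) or replicate 1 at 24 h (0.0352) and the second without replicate 3 at 24 h (0.0122).

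Tcf21, a basic helix-loop-helix factor needed for the cardiac fibroblast lineage (chr10:22817281-22820174, minus strand), dipped before it rose. It held 14, 10.5 and 13.2 CPM in sham, 10.8, 14.6 and 14.7 CPM at 10 min and 12, 11.5 and 13 CPM at 1 h. It held 15.3, 14.5 and 16.1 CPM at 6 h, 9.19, 8.95 and 9.59 CPM at 24 h and 28.5, 30.2 and 34 CPM at 72 h. The 24 h libraries were the lowest 3 of all 18 and the 72 h libraries the highest 3, with no overlap with any other group. Against sham, Tcf21 fell at 24 h (log2 -0.45, SE 0.13, edgeR adjusted p = 0.00981) and rose 2.46-fold at 72 h (log2 1.30, SE 0.13, edgeR adjusted p = 5.49e-08). From 24 h to 72 h it rose 3.34-fold (log2 1.74, SE 0.13, edgeR adjusted p = 5.41e-09), where 50.5% of all genes were called. The fall against sham was not called with library totals (log2 -0.25, adjusted p = 0.179) or without sham replicate 1 (log2 -0.36, adjusted p = 0.0577). It was also not called by limma on log2(FPKM + 1) (adjusted p = 0.21) or log2(FPKM + 0.1) (0.198).

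Gsn encodes gelsolin, a calcium-dependent protein that severs and caps actin filaments, and was the most abundant of the 10 genes (chr2:35256380-35307892, plus strand). It held 1543, 1331 and 1522 CPM in sham, 1562, 1619 and 1787 CPM at 10 min and 1566, 1787 and 1706 CPM at 1 h. It held 1687, 1365 and 1441 CPM at 6 h, 812, 546 and 572 CPM at 24 h and 697, 370 and 446 CPM at 72 h. The 6 libraries of 24 h and 72 h lay below all 12 earlier ones. Gsn fell to 0.439 of sham at 24 h (log2 -1.19, SE 0.19, edgeR adjusted p = 1.04e-04) and to 0.344 at 72 h (log2 -1.54, SE 0.19, edgeR adjusted p = 1.1e-06). The step from 6 h to 24 h was called (log2 -1.22, SE 0.19, edgeR adjusted p = 2.13e-04), and the step from 24 h to 72 h was not (log2 -0.35, adjusted p = 0.128) unless replicate 1 at 72 h was left out (log2 -0.66, adjusted p = 0.00264). That library was the highest of its group in Gsn, in the epicardial and mesothelial markers and in the cardiomyocyte markers (22750 CPM, against 17010 and 17540 CPM). Without it the fall of Gsn from sham was log2 -1.84 (adjusted p = 4.61e-08). All 10 cardiomyocyte markers also fell at 72 h, with a median log2 fold change of -1.95, where 32.2% of all genes were called lower. The part of cardiomyocyte RNA in the fall of Gsn was not tested.

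Pi16 encodes a secreted peptidase inhibitor family protein of fibroblasts around vessels and in the adventitia (chr17:29317680-29330593, plus strand). It held 67.4, 52.4 and 61.8 CPM in sham, 76.3, 66.1 and 65.2 CPM at 10 min and 69.7, 54.6 and 64.3 CPM at 1 h. It held 55.7, 49.7 and 45.2 CPM at 6 h, 42.1, 41.8 and 23.9 CPM at 24 h and 85.7, 42.1 and 56.6 CPM at 72 h. The 24 h libraries lay below all sham libraries, and the 72 h libraries spread to both sides of them. Pi16 fell at 24 h (log2 -0.75, SE 0.23, edgeR adjusted p = 0.0159), a call that was lost with library totals (log2 -0.56, adjusted p = 0.0533), without replicate 3 at 24 h (log2 -0.53, adjusted p = 0.0732) or without sham replicate 1 (log2 -0.67, adjusted p = 0.0592). At 72 h it was not called (log2 0.02, SE 0.23, edgeR adjusted p = 0.94), but with library totals it was called as higher (log2 0.60, adjusted p = 0.0225). It was higher at 72 h than at 24 h (log2 0.77, SE 0.23, edgeR adjusted p = 0.0111), and not without replicate 1 at 72 h (log2 0.45, adjusted p = 0.0775). That library had the highest Pi16 of its group. It was also the highest in the epicardial and mesothelial markers, the cardiomyocyte markers and the other fibroblast identity genes (1919 CPM, against 1555 and 1733 CPM). Without that library Pi16 was at log2 -0.30 against sham at 72 h, not called (adjusted p = 0.219).

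The 4 identity genes thus did not share a course. Set against Pdgfra within each library, Gsn went from 36.6 ± 3.5 per Pdgfra count in sham (SD, n = 3) to 10.2 ± 3.64 at 24 h and 6.5 ± 2.68 at 72 h. Tcf21 per Pdgfra was 0.314 ± 0.0464 in the sham mice, 0.144 ± 0.0193 at 24 h and 0.391 ± 0.0446 at 72 h. Pi16 per Pdgfra was 1.51 ± 0.184, 0.578 ± 0.236 and 0.794 ± 0.344. At 24 h each of the 3 genes was lower relative to Pdgfra in every library than in any sham library, and at 72 h Tcf21 alone was higher than in every sham library. These ratios are within a library, so the scaling cancels, and they were not tested.

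Of 16 other fibroblast identity genes, 3 were called higher and 9 lower at 24 h, with a median log2 fold change of -0.79. At 72 h 9 were higher and 4 lower, with a median of 0.44. Of all genes, 23.7% were higher and 20.2% lower at 24 h, and 34.2% and 32.2% at 72 h. With library totals the counts at 72 h were 11 higher and 2 lower. The named genes of this list and those below follow a rule stated with the processing. Thy1, a surface glycoprotein, rose from 10.6 ± 1.14 CPM in sham to 50.3 ± 2.98 CPM at 72 h (log2 2.25, SE 0.14, edgeR adjusted p = 1.73e-10). Mfap5, a microfibril protein, rose from 23.1 ± 3.79 to 185 ± 25.9 CPM (log2 3.00, SE 0.17, edgeR adjusted p = 1.77e-10), and Medag from 10.8 ± 0.593 to 45.6 ± 5.24 CPM (log2 2.09, SE 0.15, edgeR adjusted p = 1.37e-09). On the other side, Wif1, a secreted Wnt inhibitor, fell from 2.54 ± 0.340 to 0.847 ± 0.349 CPM (log2 -1.58, SE 0.36, edgeR adjusted p = 7.64e-04). Dpep1, a membrane dipeptidase, fell from 65.4 ± 4.43 to 39.2 ± 8.14 CPM (log2 -0.74, SE 0.18, edgeR adjusted p = 0.00151), and was not called with library totals (log2 -0.15). Among 5 genes of the PDGF system, the ligand Pdgfc rose from 1.38 ± 0.375 to 9.31 ± 0.840 CPM (log2 2.76, SE 0.28, edgeR adjusted p = 7.99e-08) and the ligand Pdgfd fell from 20.1 ± 0.660 to 11.3 ± 1.20 CPM (log2 -0.83, SE 0.13, edgeR adjusted p = 1.78e-05). The other 3 were not called at 72 h, Pdgfb among them (log2 -0.35, adjusted p = 0.071). With library totals 3 of the 5 were higher and none was lower, Pdgfd being at log2 -0.25 (adjusted p = 0.0941) and Pdgfb at 0.24.

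Among the activation genes, Meox1 encodes a homeobox factor known to be switched on in stressed cardiac fibroblasts (chr11:101877510-101894374, minus strand). It held 11.7, 8.04 and 13.2 CPM in sham, 22, 13.9 and 12 CPM at 10 min and 9.08, 6.63 and 8.16 CPM at 1 h. It held 19.1, 16 and 16.1 CPM at 6 h, 22.5, 29.8 and 24.4 CPM at 24 h and 88.2, 87.9 and 73 CPM at 72 h. From 1 h on, each time lay above the one before with no overlap, and the 10 min libraries lay above those of 1 h. Meox1 rose 2.32-fold at 24 h (log2 1.22, SE 0.21, edgeR adjusted p = 2.18e-04) and 7.54-fold at 72 h (log2 2.92, SE 0.21, edgeR adjusted p = 3.63e-09). The rise at 6 h (log2 0.63, SE 0.21, edgeR adjusted p = 0.0312) was not called with library totals (adjusted p = 0.0645), without replicate 1 at 6 h (0.12) or without sham replicate 1 (0.0615) or 2 (0.135). The difference of 1 h from 10 min was not called by edgeR (log2 -0.99, SE 0.22, adjusted p = 0.0659) and was called by DESeq2 (adjusted p = 0.00184) and with library totals (0.0429). Its paralog Meox2, which fell at 72 h (log2 -0.93, SE 0.17, edgeR adjusted p = 1.02e-04) and is named after its values were seen, moved the other way, and was at log2 -0.35 and not called with library totals (adjusted p = 0.109). Meox1 per Meox2 count went from 0.550 ± 0.104 in sham to 1.71 ± 0.219 at 24 h and 8.05 ± 0.555 at 72 h.

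Runx1 encodes the DNA-binding subunit of a core binding factor, essential for blood formation and also induced in injured heart muscle (chr16:92601466-92826149, minus strand). It held 1.47, 2.59 and 2.22 CPM in sham, 2.86, 1.68 and 2.35 CPM at 10 min and 2.42, 2.13 and 1.92 CPM at 1 h. It held 11.5, 4.31 and 5.33 CPM at 6 h, 6.73, 7.39 and 18.5 CPM at 24 h and 29, 37.9 and 31.8 CPM at 72 h. The highest values at 6 h and 24 h came from replicate 1 at 6 h and replicate 3 at 24 h, the libraries with the highest leukocyte marker sums of their groups. Runx1 rose 5.13-fold at 24 h (log2 2.36, SE 0.42, edgeR adjusted p = 5.11e-04) and 15.7-fold at 72 h (log2 3.97, SE 0.43, edgeR adjusted p = 8.85e-07), the largest change of the 10 genes at 72 h. Without replicate 3 at 24 h the change at 24 h was log2 1.75 (adjusted p = 9.51e-04). The rise at 6 h (log2 1.74, SE 0.43, edgeR adjusted p = 0.00808) was at log2 1.20 and not called without replicate 1 (adjusted p = 0.0505).

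Ptprc, the leukocyte common antigen, rose by log2 3.84 at 72 h (SE 0.40, edgeR adjusted p = 8.66e-07), and all 12 leukocyte markers were called higher at 24 h and at 72 h. Runx1 per Ptprc count was 0.335 ± 0.105 in sham, 0.419 ± 0.135 at 6 h, 0.355 ± 0.0363 at 24 h and 0.362 ± 0.0300 at 72 h. In every group the ratio overlapped the sham range of 0.215 to 0.410. Ptprc is 1 of the 12 markers, whose rises at 72 h ran from log2 2.38 to 4.84, so the ratio depends on the marker taken. Runx1 per Pdgfra count went from 0.0525 ± 0.0154 in sham to 0.414 ± 0.0218 at 72 h with no overlap. The part of leukocyte RNA in the rise of Runx1 was not tested. Of the 4 RUNX partners and paralogs, 3 were higher and 1 was lower at 72 h: Runx2 (log2 3.49, SE 0.33, edgeR adjusted p = 4.53e-08), Cbfb, the subunit that stabilises RUNX proteins on DNA (log2 1.29, SE 0.13, edgeR adjusted p = 7.4e-08), Runx3 (log2 3.19, SE 0.44, edgeR adjusted p = 6.53e-06) and the corepressor Runx1t1 (log2 -0.59, SE 0.19, edgeR adjusted p = 0.0111). Of all genes, 23.7% were called higher at 24 h, and 34.2% higher and 32.2% lower at 72 h. The fall of Runx1t1 was not called with library totals. At 6 h the 3 rises were no longer called without replicate 1.

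Acta2 encodes smooth muscle α-actin, the filament whose appearance in stress fibres defines the myofibroblast (chr19:34241090-34255590, minus strand). It held 124, 95.6 and 143 CPM in sham, 194, 156 and 94 CPM at 10 min and 132, 103 and 107 CPM at 1 h. It held 98.2, 134 and 84.2 CPM at 6 h, 102, 124 and 112 CPM at 24 h and 271, 361 and 321 CPM at 72 h. The first 5 groups overlapped one another, and every 72 h library lay above all 15 others. Acta2 was not called up to 24 h (log2 -0.10, SE 0.23, edgeR adjusted p = 0.748 at 24 h), and then rose 2.63-fold over sham (log2 1.4, SE 0.23, edgeR adjusted p = 5.67e-05) and 2.82-fold over 24 h (log2 1.5, SE 0.23, edgeR adjusted p = 5.55e-05).

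Promoter sequence is shown for Acta2 as the classical serum response factor target among the 10 genes, for Gsn as a gene that holds a similar element and moved the other way, and for Lrrc15 as the activation gene that fell at 72 h. RefSeq windows (build GRCm38.p6) of 250 bases before the annotated start were matched by symbol for 7 of the 10 genes. Tagln, Fap and Meox1 had no window. The Acta2 window held a GGAATG match, the core motif of TEAD factors, and 2 CArG boxes that each differ from the consensus at 1 core position. These lie 146 to 141, 84 to 75 and 34 to 25 bases before the RefSeq start. In the longer Acta2 transcript of GENCODE M21 the same bases fall in the untranslated first exon, so only 30 bases around each match are printed, with the match in capitals.
Acta2 GGAATG, chr19:34255502-34255531, minus strand: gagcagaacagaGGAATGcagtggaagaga
Acta2 distal CArG box, chr19:34255438-34255467, minus strand: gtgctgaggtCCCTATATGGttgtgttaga
Acta2 proximal CArG box, chr19:34255388-34255417, minus strand: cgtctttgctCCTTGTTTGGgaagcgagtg
Gsn first promoter window, chr2:35256109-35256358, plus strand, CArG box with 1 core mismatch in capitals: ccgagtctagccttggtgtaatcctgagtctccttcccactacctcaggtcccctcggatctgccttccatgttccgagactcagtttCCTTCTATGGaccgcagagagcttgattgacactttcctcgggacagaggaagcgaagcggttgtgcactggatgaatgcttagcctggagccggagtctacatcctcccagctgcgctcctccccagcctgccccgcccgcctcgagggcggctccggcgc
Lrrc15 promoter window, chr16:30283255-30283504, minus strand, AP-1 match TGANTCA in capitals: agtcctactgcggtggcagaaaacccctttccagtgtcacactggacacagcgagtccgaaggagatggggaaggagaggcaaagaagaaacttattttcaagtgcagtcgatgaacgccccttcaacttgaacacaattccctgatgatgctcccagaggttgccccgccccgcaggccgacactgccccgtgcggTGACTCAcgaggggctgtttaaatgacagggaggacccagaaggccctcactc

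Over all 32817 RefSeq windows of this length, searched on both strands, 8.6% held a CArG box with up to 1 core mismatch and 0.67% held 2 or more, as Acta2 did. A full CArG box was in 1.47% of windows and in none of the windows of the 7 genes. GGAATG was in 12.6% of windows, and among the 7 genes it was in Acta2 and in the second of the 2 Runx1 windows. TGANTCA was in 6.75% of windows, and among the 7 genes in Lrrc15 alone, 53 to 47 bases before the start. CAGAC, the SMAD motif, was in 42.2% of windows and occurred 3 times in that of Tcf21. A match describes the letters of a window and is neither a binding site nor a cause of any change below.

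Smooth muscle contractile genes were divided at 72 h: of 14 tested, 5 were higher and 8 lower, against 34.2% and 32.2% of all genes. The median log2 fold change was -0.70. With library totals 5 were higher, 3 lower and the median -0.12. Cnn1 (log2 1.59, edgeR adjusted p = 9.56e-04), Actg2 (1.99, 1.86e-05) and Myl9 (0.80, 4.86e-05) rose as Acta2 did. Cnn1 and Myl9 are named after their values were seen. The part of cardiomyocyte RNA in the falls of this list was not tested. By the naming rule, Tpm1, a tropomyosin also abundant in cardiomyocytes, fell from 8577 ± 401 to 3409 ± 360 CPM (log2 -1.33, SE 0.12, edgeR adjusted p = 2.85e-08), and Synpo2, an actin-bundling protein, fell by 1.01 on the log2 scale (SE 0.13, edgeR adjusted p = 2.66e-06). Tpm2, the beta tropomyosin, rose from 27.8 ± 5.24 to 76.4 ± 4.18 CPM (log2 1.46, SE 0.18, edgeR adjusted p = 1.66e-06), and Cald1, caldesmon, from 75.3 ± 2.38 to 182 ± 31.1 CPM (log2 1.27, SE 0.18, edgeR adjusted p = 6.99e-06). Myh11, the smooth muscle myosin heavy chain, named here after its values were seen, fell from 102 ± 6.98 to 32.3 ± 17.8 CPM (log2 -1.66, SE 0.27, edgeR adjusted p = 7.21e-05). Of 8 pericyte markers, 7 were lower and 1 higher (4 and 1 with library totals), with a summed level of 1296 to 1322 CPM in sham and 598 to 729 CPM at 72 h. Acta2 per Myh11 count was 1.19 ± 0.2 in the sham mice, 2.14 ± 0.199 at 24 h and 11.2 ± 3.92 at 72 h, where its 3 libraries gave 12.5, 6.84 and 14.4. Myh11 had the lowest log2 fold change of the 14 genes at 72 h, so the size of this ratio depends on that choice, and it was not tested.

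**Figure D3:**
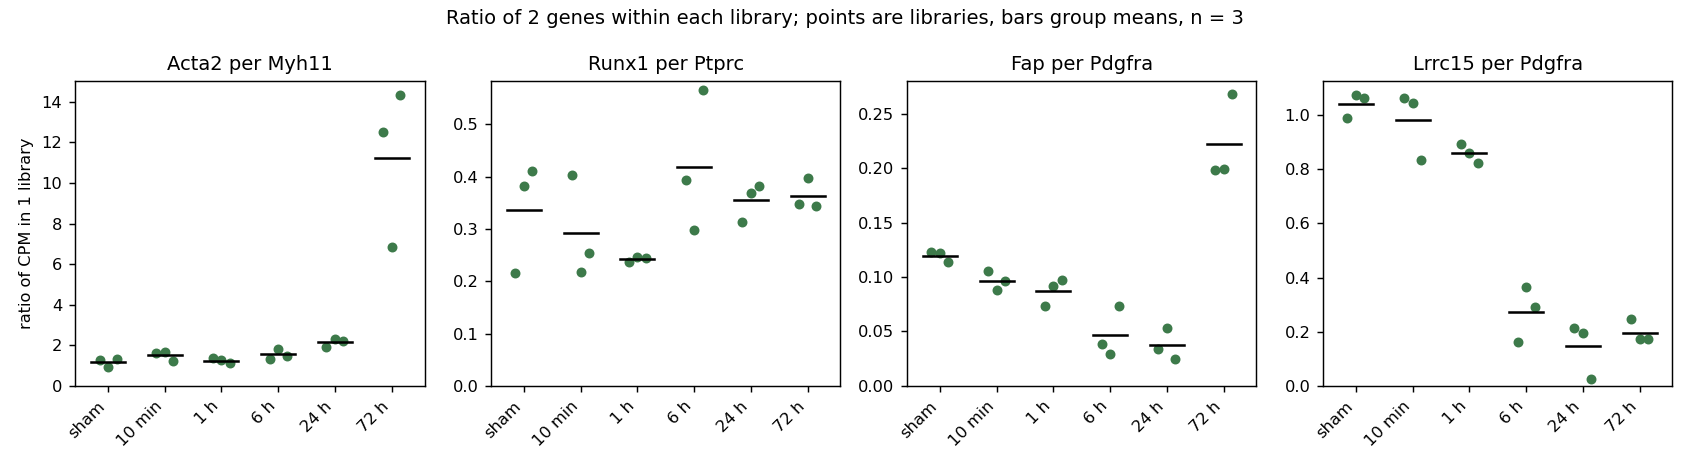
Ratio of the CPM of 2 genes within each library, on linear axes; points are libraries and bars are means of 3. Acta2 per Myh11 lies at 6.84 or above in all 72 h libraries and at 2.29 or below in all others, whereas Runx1 per Ptprc has group means between 0.243 and 0.419. Both ratios depend on the second gene chosen, and Myh11 fell the most of the 14 smooth muscle contractile genes at 72 h.

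Tagln encodes transgelin, an actin-binding protein of smooth muscle and myofibroblasts (chr9:45929619-45936058, minus strand), and was counted far less than Acta2. It had 11, 13 and 21 counts in sham, 17, 20 and 8 at 10 min, 18, 9 and 16 at 1 h, 12, 17 and 3 at 6 h, 13, 18 and 18 at 24 h and 70, 72 and 69 at 72 h. In CPM this is 0.556, 0.674 and 0.933 in sham and 2.21, 2.19 and 2.20 at 72 h, and no earlier library exceeded 1.06. Tagln rose 3.01-fold over sham (log2 1.59, SE 0.38, edgeR adjusted p = 0.0011) and 3.12-fold over 24 h (log2 1.64, SE 0.37, edgeR adjusted p = 0.00124). Per kilobase of gene length, Tagln stood at 0.363 ± 0.0969 CPM in sham, where Acta2 stood at 67.7 ± 13.2.

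Of the 1988 exon bases of Tagln in GENCODE M21, 1349 (67.9%) are also exon bases of genes on the opposite strand, 1241 of them in the antisense gene Gm48529 and 108 in Pcsk7. For the other 9 genes the shared part was at most 6.5%. Whether the authors' counting used strand is not given in the sources used here. Without strand, reads of Tagln and of its opposite-strand neighbours cannot be told apart, so the level of Tagln is uncertain. Gm48529 had 8 to 12 counts in sham and 22 to 30 at 72 h, and Pcsk7 was at 23.4 ± 0.320 CPM in sham and 25.4 ± 1.73 CPM at 72 h.

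**Figure D4:**
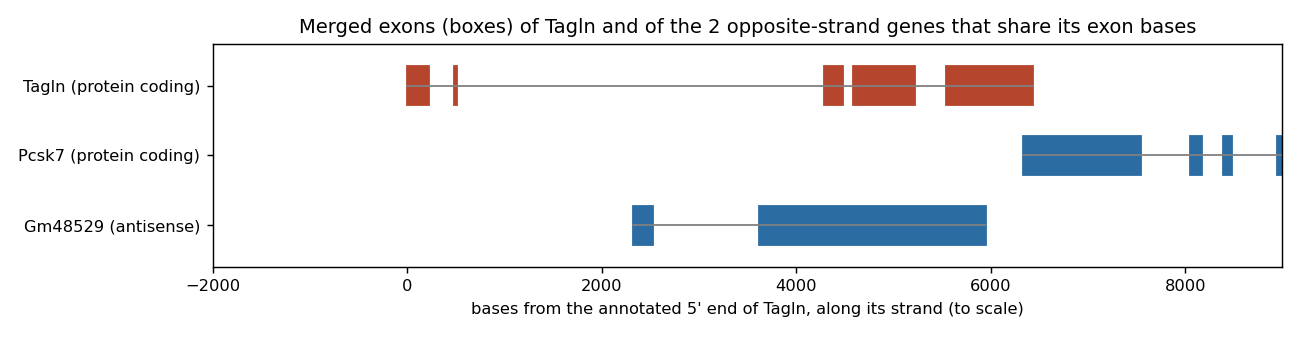
Merged exons (boxes, to scale, in bases from the 5′ end of Tagln) of Tagln and of the 2 opposite-strand genes that share its exon bases. Gm48529 covers 1241 and Pcsk7 108 of its 1988 exon bases, and 639 are not shared.

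Fap encodes fibroblast activation protein, a serine protease on the surface of activated fibroblasts (chr2:62500943-62574075, minus strand), and it fell before it rose. It held 5.16, 4.93 and 4.35 CPM in sham, 4.30, 4.16 and 5.08 CPM at 10 min and 3.38, 4.68 and 4.43 CPM at 1 h. It held 2.15, 1.72 and 2.98 CPM at 6 h, 1.94, 3.25 and 1.91 CPM at 24 h and 14.6, 17.3 and 20.8 CPM at 72 h. The 6 libraries of 6 h and 24 h were the lowest of all 18, and the 72 h libraries the highest. Fap fell to 0.474 of sham at 6 h (log2 -1.08, SE 0.23, edgeR adjusted p = 0.00234) and to 0.499 at 24 h (log2 -1.0, SE 0.23, edgeR adjusted p = 0.00184). It then rose 7.31-fold from 24 h to 72 h (log2 2.87, SE 0.22, edgeR adjusted p = 1.08e-08), which left it 3.65-fold above sham (log2 1.87, SE 0.21, edgeR adjusted p = 3.55e-07). Of the 5 calls at 6 h, that of Fap was the 1 that held without replicate 1 at 6 h (log2 -1.04, adjusted p = 0.0122). Fap per Pdgfra count fell from 0.120 ± 0.00486 in sham to 0.0467 ± 0.0232 at 6 h and 0.0374 ± 0.0145 at 24 h and was 0.222 ± 0.0399 at 72 h. Its paralog Dpp4, a dipeptidyl peptidase named after its values were seen, stood at 3.92 ± 0.285 CPM in the sham mice, at 1.55 ± 0.219 CPM at 24 h and at 5.73 ± 1.43 CPM at 72 h.

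Lrrc15 encodes a leucine-rich repeat membrane protein that marks TGF-β driven myofibroblasts in several fibrotic tissues and tumours (chr16:30269302-30283256, minus strand). Here it was the 1 activation gene of the 6 that was called lower at 72 h. It held 41.4, 43.4 and 40.5 CPM in sham, 43.3, 49.2 and 44.1 CPM at 10 min and 41.2, 43.8 and 37.4 CPM at 1 h. It held 9.06, 21.5 and 11.9 CPM at 6 h, 12.1, 12 and 2.06 CPM at 24 h and 18.1, 14.8 and 13.3 CPM at 72 h. All 9 libraries from 6 h on lay below all 9 earlier ones, with the lowest value in replicate 3 at 24 h. Lrrc15 fell at 6 h (log2 -1.55, SE 0.42, edgeR adjusted p = 0.0134), 24 h (log2 -2.23, SE 0.43, edgeR adjusted p = 9.7e-04) and 72 h (log2 -1.44, SE 0.41, edgeR adjusted p = 0.00649). The call at 6 h was lost without replicate 1 (log2 -1.32, adjusted p = 0.0632). That at 72 h was lost with library totals (log2 -0.85, adjusted p = 0.0847) and by limma on log2(FPKM + 0.1) (0.0996). Without replicate 3 at 24 h the fall at 24 h was log2 -1.79 (adjusted p = 6.15e-05). All 72 h libraries lay above all 24 h libraries, a step not called (log2 0.80, SE 0.42, edgeR adjusted p = 0.132). It was called as a rise with library totals (log2 1.19, adjusted p = 0.0358) and by limma on log2(FPKM + 1) (0.00657) and log2(FPKM + 0.1) (0.0108). Without replicate 3 at 24 h it was log2 0.35, not called (adjusted p = 0.241).

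Within the 6 h and the 24 h group, the library lowest in Lrrc15 was the highest in Runx1 (replicate 1 at 6 h and replicate 3 at 24 h), which was not so at 72 h. Across the 18 libraries, which share 6 groups and the same scaling, their log2 CPM had a Pearson r of -0.74, and -0.80 after each group's mean was removed. Lrrc15 per Pdgfra count was 1.04 ± 0.0466 in sham, 0.272 ± 0.103 at 6 h, 0.145 ± 0.103 at 24 h and 0.196 ± 0.0431 at 72 h. Lrrc17, which also encodes a leucine-rich repeat protein and is named here after its values were seen, rose from 3.62 ± 0.244 CPM in sham to 31.5 ± 4.33 CPM at 72 h (log2 3.12, SE 0.35, edgeR adjusted p = 7.58e-07).

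Per kilobase of the gene length used by the authors, which allows levels to be compared between genes, the order in sham was Gsn (464 ± 37.1 CPM per kilobase), Acta2 (67.7 ± 13.2), Pi16 (15.2 ± 1.90), Lrrc15 (7.86 ± 0.275), Tcf21 (5.35 ± 0.774), Meox1 (4.93 ± 1.20), Pdgfra (4.0 ± 0.188), Fap (0.850 ± 0.0731), Tagln (0.363 ± 0.0969) and Runx1 (0.177 ± 0.0486). Meox1 did not differ from either neighbour beyond the spread, and the other neighbours were further apart than their SDs. At 72 h Acta2 (178 ± 25.5) stood beside Gsn (160 ± 54.2) within their spread. Meox1 (37.3 ± 3.90) had moved above Pi16 (15.4 ± 5.57) and Tcf21 (13.2 ± 1.20), and Lrrc15 was at 2.90 ± 0.460 beside Fap at 3.10 ± 0.550 and Runx1 at 2.78 ± 0.384. The lengths implied by the deposited FPKM equal the GENCODE M21 exon lengths for 7 of the 10 genes, but not for Pi16 (3987 against 6364 bases), Acta2 (1781 against 2196) and Runx1 (11827 against 12025), so the places of Pi16 and Acta2 in the order are uncertain. The place of Tagln is uncertain too, since 67.9% of its exon bases are shared with opposite-strand genes. With the M21 lengths, tried after seeing the data, Pi16 stood at 9.52 ± 1.19 CPM per kilobase in sham, still between Acta2 and Lrrc15, and at 9.66 ± 3.49 at 72 h, below Tcf21 and within the spread of both Tcf21 and Pdgfra (7.91 ± 0.667). Acta2 then stood at 54.9 ± 10.7 in sham and at 145 ± 20.7 at 72 h, below the mean of Gsn and within its spread.

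All 16 other activated fibroblast and matrix genes were called higher at 72 h, as were 34.2% of all genes. Their median log2 fold change was 5.04 (against 1.73 for the 6 activation genes above). At 24 h 12 were higher and 1 lower (23.7% and 20.2% of all genes), and at 6 h 4 were higher and 1 lower (16.3% and 12.2%). The list was chosen with earlier results of these data known, so its uniform direction cannot be read as a result about the activated state. Cthrc1, a secreted protein of reparative fibroblasts, had 1 to 5 counts in the sham libraries, 24 to 56 at 24 h and 3688 to 4425 at 72 h (edgeR adjusted p = 2.18e-13). Adam12, a membrane metalloprotease, stood at 0.321 ± 0.0719 CPM in the sham mice, at 17 ± 5.17 at 24 h and at 47.7 ± 11.5 at 72 h (log2 7.18, SE 0.33, edgeR adjusted p = 1.19e-11). Postn, the matricellular protein periostin, went from 21.1 ± 4.29 CPM to 80.8 ± 28 and 1565 ± 45 (log2 6.21, SE 0.27, edgeR adjusted p = 1.46e-11). At 24 h, when these genes had begun to rise, Acta2 and Tagln were not called and Fap and Lrrc15 were below sham. Of 10 proliferation markers, 9 were called higher at 72 h.

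Of 20 genes of the TGF-β, Hippo and serum response factor pathways, 11 were higher and 1 lower at 6 h, and 10 higher and 0 lower at 24 h. At 72 h 12 were higher and 5 lower, with a median log2 fold change of 0.81. Of all genes, 16.3% were higher and 12.2% lower at 6 h, 23.7% and 20.2% at 24 h, and 34.2% and 32.2% at 72 h. With library totals the counts at 72 h were 16 higher and 1 lower, so the smaller falls in this list depend on the scaling. The receptor Tgfbr1 rose from 17 ± 0.259 to 64.4 ± 5.37 CPM (log2 1.92, SE 0.15, edgeR adjusted p = 5.1e-09), the ligand Tgfb3 from 18.5 ± 1.34 to 79.8 ± 8.15 CPM (log2 2.11, SE 0.18, edgeR adjusted p = 1.66e-08) and the receptor Tgfbr2 from 65.6 ± 4.11 to 141 ± 16.8 CPM (log2 1.10, SE 0.10, edgeR adjusted p = 2.89e-08). Myocd, the coactivator that pairs with serum response factor in cardiac and smooth muscle, fell from 26.7 ± 1.80 to 13.1 ± 1.91 CPM (log2 -1.03, SE 0.21, edgeR adjusted p = 3.78e-04). Yap1, the Hippo pathway coactivator, fell from 102 ± 1.43 to 71.4 ± 2.65 CPM (log2 -0.51, SE 0.10, edgeR adjusted p = 1.97e-04), a direction that flipped to log2 0.08, not called, with library totals.

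Among 14 paralogs of the 10 genes, 7 were higher and 4 lower at 72 h, against 34.2% and 32.2% of all genes. With library totals 10 of the paralogs were higher and 2 lower. Capg, a capping relative of gelsolin that is abundant in macrophages, rose from 11.3 ± 0.776 to 156 ± 4.79 CPM (log2 3.79, SE 0.21, edgeR adjusted p = 1.38e-10). Svil, supervillin of the same family, fell by 0.89 on the log2 scale (SE 0.11, edgeR adjusted p = 1.19e-06). Tagln2, the transgelin of non-muscle cells, rose from 73.7 ± 2.12 to 290 ± 25.9 CPM (log2 1.98, SE 0.14, edgeR adjusted p = 1.5e-09). Cytoplasmic β-actin, Actb, rose from 296 ± 40.1 to 1509 ± 104 CPM (log2 2.35, SE 0.23, edgeR adjusted p = 1.2e-07), and cardiac α-actin, Actc1, fell from 9864 ± 787 to 4321 ± 509 CPM (log2 -1.19, SE 0.21, edgeR adjusted p = 6.4e-05). Actins are close to identical in their coding parts, and how reads with several matches were counted is not given in the sources used here, so the level of Acta2 is uncertain to that extent.

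**Figure D5:**
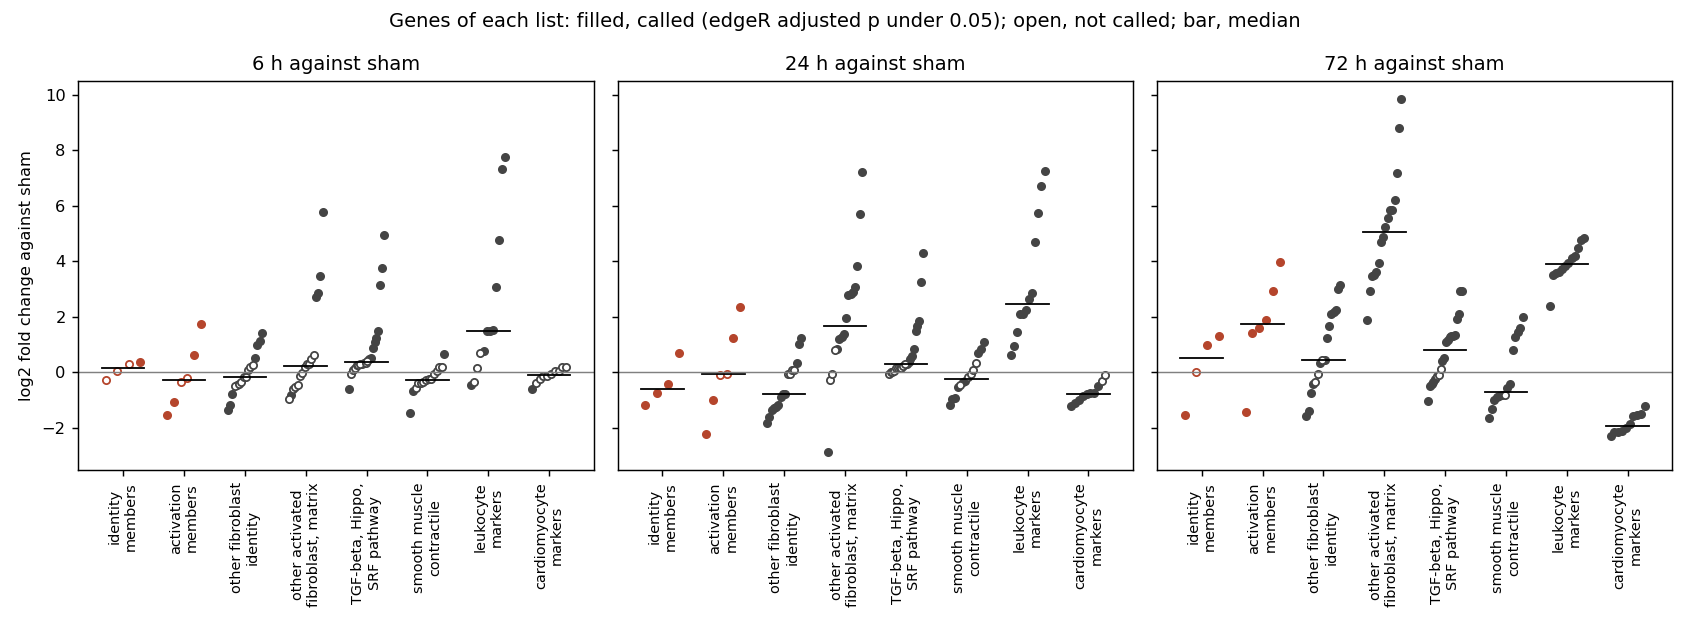
Log2 fold change against sham at 6, 24 and 72 h of the genes in each list; filled points were called by edgeR, open points were not, and bars are medians. At 72 h the 16 other activated fibroblast and matrix genes all lie above 0, and the 14 smooth muscle contractile genes lie on both sides of it.

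The genes whose log2 CPM followed each of the 10 most closely over the 18 libraries, among 11665 candidates, are a description with no test, since the libraries share groups, depth and scaling. Acta2 and Tagln had the same 2 nearest genes, Actg2 (r = 0.94 and 0.92) and Adam17 (0.93 and 0.90). Actg2, the enteric smooth muscle actin, went from 1.38 ± 0.319 to 5.51 ± 1.11 CPM at 72 h (log2 1.99, SE 0.31, edgeR adjusted p = 1.86e-05). Runx1 was nearest to Sdcbp (0.99) and Sh3bp2 (0.99), Meox1 to Acsl5 (0.97) and Cavin3 (0.97), Fap to Mmp23 (0.97) and Man2b2 (0.96) and Lrrc15 to Htra1 (0.99) and Nqo2 (0.97). Pdgfra was nearest to Rbpj (0.96) and Nsf (0.95), Tcf21 to Igfbp4 (0.96) and Apoe (0.95), Gsn to Sbk2 (0.99) and Cabcoco1 (0.98), and Pi16, with the loosest match, to Rtl8c (0.88) and Fcgrt (0.87). With group means removed, r stayed at 0.96 for Lrrc15 with Htra1 and 0.94 for Pdgfra with Rbpj, and was 0.42 for Tcf21 with Igfbp4 and 0.41 for Meox1 with Acsl5.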

How the data were processed

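Poly(A) RNA of 18 left ventricles was sequenced, 1 library per mouse. Per the submitters' processing notes, cutadapt 1.18, HISAT2 2.1.0, featureCounts and build mm10 were used; the use of strand and the annotation are not given in the sources used here. The authors deposited read counts per Ensembl gene, and FPKM, which were these counts divided by a whole-number gene length and the library total (10475 genes checked). The deposited FPKM columns of replicates 2 and 3 at 6 h held each other's counts. Without molecular identifiers, PCR copies cannot be told from separate molecules. Symbols came from GENCODE M21 (30489 IDs matched, 94 did not), and 0 sample columns were left out.

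Counts were fitted with edgeR 4.0.16 (R 4.3.3): filterByExpr kept 16311 genes and removed 14272, TMM scaling, glmQLFit (robust) with 1 mean per group over all 18 libraries, two-sided glmQLFTest. The biological coefficient of variation was 0.149. SE is the log2 fold change divided by the square root of F. Levels per kilobase use the gene length implied by FPKM, and the GENCODE M21 exon length as an alternative. Log2 CPM used a prior count of 2. The method was tested on simulated data with few changed genes and balanced directions, which cannot judge the choice of scaling. Alternatives were RLE and library total scaling, other filters, DESeq2 1.42.0, limma 3.58.1 on log2(FPKM + 1) and log2(FPKM + 0.1), the 2 groups alone, a replicate block and leaving out each library.

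The 10 genes and all lists were chosen with earlier results of these data known. Each list contributes by name its 3 genes of lowest adjusted p at 72 h and up to 2 called the other way; each of the 10 genes contributes the 2 others of highest r among genes averaging 50 counts or more.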

Additional observations from a re-analysis of the deposited data

Results flagged for a closer look

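The consecutive comparisons test whether 2 times differed in their effect against the same sham mice, and 14 of them were called for the 10 genes by edgeR, at an adjusted p under 0.05 over all genes. From 1 h to 6 h, where 24.5% of all genes were called, Meox1 was higher (log2 1.10) and Runx1 higher (1.69), and Fap (-0.86) and Lrrc15 (-1.52) were lower. From 6 h to 24 h, where 27.8% were called, Tcf21 (-0.73) and Gsn (-1.22) were lower and Meox1 was higher (0.59). From 24 h to 72 h, where 50.5% were called, 7 genes were higher: Fap (2.87), Tcf21 (1.74), Meox1 (1.70), Tagln (1.64), Runx1 (1.61), Acta2 (1.5) and Pi16 (0.77). Fap thus changed direction between 24 h and 72 h relative to sham, and so did Tcf21 in the main fit. The fall of Tcf21 at 24 h was not called with library totals (adjusted p = 0.179) or without sham replicate 1 (0.0577). Nor was it called by limma on log2(FPKM + 1) (0.21) or log2(FPKM + 0.1) (0.198). Leaving out 1 library ended some of these calls: Fap from 1 h to 6 h without replicate 2 at 1 h or at 6 h (adjusted p = 0.0568 and 0.0578), Runx1 without replicate 1 at 6 h (0.0686), Lrrc15 without replicate 2 at 1 h or replicate 1 or 3 at 6 h (0.0522 to 0.0771), Meox1 from 6 h to 24 h without replicate 2 or 3 at 6 h or at 24 h (0.0554 to 0.147), and Pi16 without replicate 1 at 72 h (0.0775). With 3 libraries a group, no test for single outlying libraries was made.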

How the results depend on the processing

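Over 1341 alternative values of single genes in the 9 comparisons, none reversed a called direction, 46 lost a call and 20 gained one. Of the 10 genes, 5 were called at 6 h against sham, where 28.4% of all genes were called. Library totals gave 3 (4716 of 16311 genes), limma on log2(FPKM + 1) gave 2 (3931 of 15156) and limma on log2(FPKM + 0.1) gave 3 (4386 of 15156). Leaving out 1 library gave 1 (without replicate 1 at 6 h) to 5, with 3 without sham replicate 1 or 2. For 6 h against 1 h the count of 4 became 2 with limma on log2(FPKM + 1) (3194 of 15156 genes), and 2 to 4 without 1 library, the 2 without replicate 2 at 1 h or replicate 1 at 6 h. For 1 h against 10 min the count of 0 became 1, Meox1, with library totals (52 of 16311 genes) and with DESeq2 (127 of 30583). Against sham the count was 0 at 10 min and 1 h under every alternative, 6 to 8 at 24 h and 8 to 10 at 72 h, and for 72 h against 24 h it was 6 to 9. In the main fit the shares of all genes called were 43.8% at 24 h, 66.4% at 72 h and 50.5% for 72 h against 24 h. The cause of these changes was not tested.

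The labels do not say that replicate numbers mark shared animals or days, and same-numbered libraries did not deviate together (mean r of 0.016 over 45 pairs, 4 of them over 0.1), although 9 of 18 libraries correlated best with their own number. With a replicate block the counts were 4 at 6 h, 8 at 24 h and 9 at 72 h, where 4540, 7091 and 10784 of 16311 genes were called. Tagln, at 3 to 21 counts before 72 h, is the gene most limited by depth.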
